A study of Gossypium hirsutum with 15 samples.

Results

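Fibers of Upland cotton line TM-1 were compared between 22 and 16 days post-anthesis (DPA), stages that span the start of secondary cell wall (SCW) thickening. The members were chosen by line and stage and not by any measured value: they are the TM-1 channels of the 3 arrays at 22 DPA and of the 3 arrays at 16 DPA, 6 of the 30 channels of 15 dual-dye cDNA arrays. On each array fiber RNA of TM-1 was hybridised together with fiber RNA of the same age from the immature fiber mutant (*im*), a near-isogenic line in the TM-1 background with thin fiber walls. Arrays of 13, 19 and 25 DPA completed the series. All plants were grown in the field and their flowers were pollinated by hand, and the methods describe each sample as a pool of plants. It is not clear whether the swapped array of a stage carried RNA of its own, and where it did not, the spread behind the p-values is partly technical. RNA came from fibers by the sample labels, and from ovules bearing fibers by the series record. No table used here pairs the 29184 cDNA probes with genes, so the tissue could not be checked against marker genes. Probes are given by their spot names, without roles, and a DEG is a probe.

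Cotton fibers are single cells of the seed coat epidermis. They first elongate with a thin, extensible primary wall, then pass through a transition in which elongation slows, and then lay down an SCW of nearly pure cellulose. Sucrose imported into the fiber is the main source of the glucose units that cellulose synthases join into chains, and the SCW uses a set of cellulose synthases other than that of the primary wall. The comparison of 22 with 16 DPA asks which transcripts of TM-1 fibers differ as this deposition gets under way. In RNA of whole fibers, fewer cells of a type and less RNA per cell cannot be told apart.

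The dye of each line was taken from the source names with replicate 2 as the dye swap, which places TM-1 in Cy3 on replicates 1 and 3 and in Cy5 on replicate 2. The dye labels give Cy5 to *im* throughout. Across probes, however, the log2(Cy5/Cy3) values of replicate 2 ran against those of replicates 3 and 1, with correlations of -0.71 and -0.63 at 22 DPA and of -0.78 and -0.75 at 16 DPA, while replicates 1 and 3 correlated at 0.75 at 22 DPA and 0.78 at 16 DPA. The material labels exchange the lines at 22 and 16 DPA and leave them as given here at 13, 19 and 25 DPA, while the methods exchange them at all stages. Which line each value belongs to is therefore not settled, whereas 22 and 16 DPA are named alike by every label. Under the material labels the values of TM-1 and *im* at 22 and 16 DPA change places, as do their changes between these stages, and the sign of each difference between the lines at or between these stages turns. The values of 13, 19 and 25 DPA stay, so a statement that sets 22 or 16 DPA beside another stage would then set other values side by side.

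At 22 DPA, 13761, 15497 and 16792 probes were measured on replicates 1, 2 and 3, against 14937, 17371 and 17025 at 16 DPA. A probe counted as measured where at least one dye reached 400 units after background subtraction. In the TM-1 dye itself 12507, 14435 and 16143 probes reached 400 units at 22 DPA, against 13779, 15896 and 15966 at 16 DPA. Replicate 1 had the fewest at both stages. Between 2 and 26 probes per channel were saturated and were kept. Normalised TM-1 levels correlated across probes at 0.89 to 0.91 between the replicates of 22 DPA and at 0.87 to 0.91 between those of 16 DPA. Between 22 and 16 DPA they correlated at 0.69 to 0.77. The levels of 22 DPA correlated at 0.82 to 0.88 with those of 25 DPA, and the levels of 16 DPA at 0.82 to 0.90 with those of 13 DPA. With the levels of 19 DPA, those of 22 DPA correlated at 0.71 to 0.85 and those of 16 DPA at 0.68 to 0.84. Both ranges overlap with that between 22 and 16 DPA. The transcriptomes of 22 and 16 DPA were thus less alike than those of either stage and its outer neighbour, but they are also further apart in time. These correlations are descriptions over 9 pairs of arrays per pair of stages, and over 3 pairs within a stage.

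Between 22 and 16 DPA, 2145 of the 14163 probes tested were DEGs in TM-1, or 15.1%, with a limma adjusted p under 0.05 and a change of at least 2-fold. At 22 DPA 888 of them were higher (6.27% of the probes tested) and 1257 were lower (8.88%). The median fold change was 3.20 for the DEGs higher at 22 DPA and 2.97 for those lower. At least 4-fold changes were found for 279 DEGs higher and 346 lower, and at least 8-fold changes for 74 and 83. Large changes thus occurred in both directions. Without the fold limit, 2234 probes had an adjusted p under 0.05. By fold change alone, 1305 probes were at least 2-fold higher and 1847 at least 2-fold lower at 22 DPA, of which 1007 did not reach the adjusted p. Of the 772 higher and 1093 lower DEGs that were measured on all 6 arrays, the TM-1 values of the stages did not overlap for 742 and 1067. Among all probes measured on all 6 arrays, 15.1% were higher without overlap and 22.3% lower. Because the same values made the calls, the counts without overlap are a description.

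The excess of lower over higher DEGs depended on the scaling, the filter and replicate 1 of 22 DPA. The median change over all probes tested was -0.12 on the log2 scale. Among probes with an adjusted p under 0.05, 920 were at least 2-fold higher relative to this median and 1160 at least 2-fold lower. Only the fold limit was moved here, and the adjusted p still tested against no change. Lower probes made up 58.6% of the DEGs with Aquantile scaling, and 75.2% without it, when 409 probes were higher and 1241 lower and the median change of all probes moved by -0.18. With no filter on faint spots, 1684 were higher and 1599 lower, and the median moved by 0.12. Without replicate 1 of 22 DPA, the array with the fewest measured probes, 755 probes were higher and 762 lower. In the plot of change against level the DEGs lie over most of the range of levels.

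**Figure D1:**
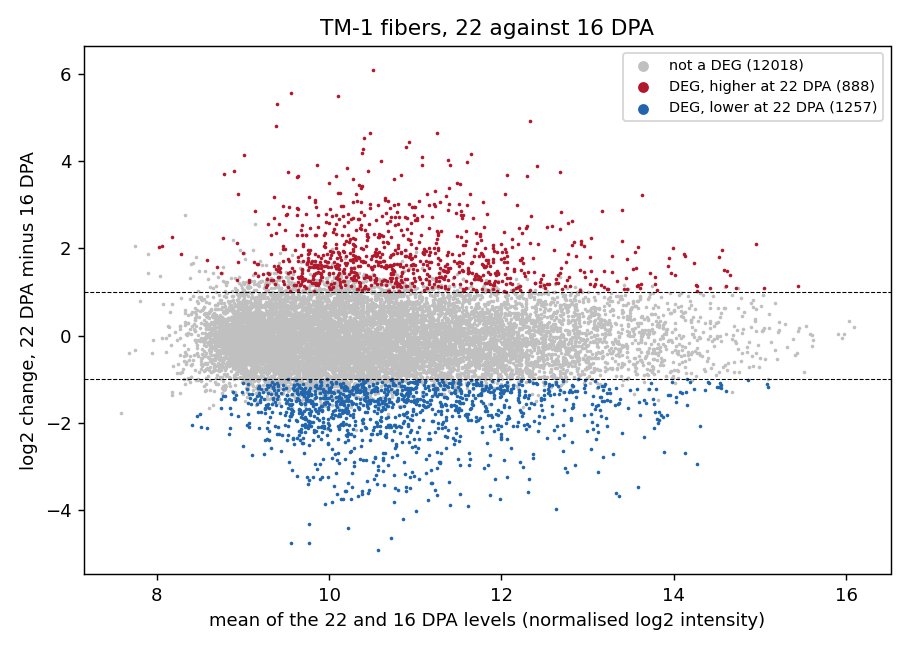
Change of each of the 14163 probes tested in TM-1 fibers (vertical axis, log2 of 22 DPA over 16 DPA) against the mean of its levels at 22 and 16 DPA (horizontal axis, normalised log2 intensity). Red points are the 888 DEGs higher at 22 DPA, blue points the 1257 DEGs lower at 22 DPA, grey points all other probes, and dashed lines mark 2-fold. The red and blue points extend over most of the range of levels.

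The share of probes called depended on their level. When the probes were divided into 4 groups of equal size by mean level, the faintest group held the fewest DEGs. In that group 2.06% were DEGs higher and 2.34% lower at 22 DPA, with a median standard error of 0.47 on the log2 scale. In the brightest group 7.20% were higher and 11.5% lower, with a median standard error of 0.37. The 2 middle groups held 7.09% and 8.73% higher and 10% and 11.6% lower. Faint probes were thus called least often and had the largest errors.

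Among DEGs over 400 units in the TM-1 dye on all 6 arrays and without overlap between the stages, the probe with the largest increase was 384P71_H_12. Its TM-1 levels were 12.80, 13.42 and 13.26 on the log2 scale at 22 DPA, and 8.03, 9.35 and 8.73 at 16 DPA. It was 21.9-fold higher at 22 DPA, a log2 change of 4.45 ± 0.43 (SE, n = 3 arrays per stage, limma adjusted p = 1.01e-07). Every value of 22 DPA exceeded every value of 16 DPA by more than 3 on this scale. At 19 DPA the levels were 11.70 to 12.44, and at 25 DPA 10.89 to 11.65, below all values of 22 DPA. At 13 DPA both dyes were under 400 units on all 3 arrays, so the probe was not measured there. The *im* dye was under 400 units on all 3 arrays of 16 DPA, and no change is given for *im*. Under the material labels these faint values would be those of TM-1.

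Probe 384P45_G_04 had the next largest increase. Its TM-1 levels were 13.55, 13.76 and 13.86 at 22 DPA, and 9.01, 9.64 and 10.05 at 16 DPA, which is 17.9-fold (log2 change 4.16 ± 0.37, adjusted p = 8e-09). The TM-1 levels at 13 DPA, 11.19, 11.28 and 12, lay above all those of 16 DPA, so that by source names 16 DPA was the lowest of the 5 stages for this probe. In *im* the levels were 12.74, 12.91 and 12.98 at 22 DPA and 11.25, 11.38 and 11.93 at 16 DPA, a log2 change of 1.36 (adjusted p = 0.0124). The increase was thus larger in TM-1 by source names. Under the material labels the change of TM-1 would be the smaller one. Its levels of 16 DPA, 11.25 to 11.93, would then lie within the range of 13 DPA.

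The largest decrease by the same criteria was that of 384P15_G_17. Its TM-1 levels were 9.12, 9.87 and 9.36 at 22 DPA, and 13.41, 13.42 and 13.22 at 16 DPA. The probe fell by 3.90 ± 0.34 on the log2 scale, and was 15.0-fold lower at 22 DPA (adjusted p = 8e-09). All values of 22 DPA were at least 3 below those of 16 DPA. The fall was spread over the series, with TM-1 levels from 14.25 to 14.70 at 13 DPA. They were between 11.03 and 11.80 at 19 DPA and between 9.04 and 9.37 at 25 DPA. The change in *im* was -4.07, and the change of log2(TM-1/*im*) was 0.17 with an adjusted p = 0.555, so a difference between the lines was not detected.

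Probe 384P08_I_04 followed, with TM-1 levels of 9.33, 9.22 and 9.21 at 22 DPA and 12.77, 13.35 and 12.99 at 16 DPA. It was 13.8-fold lower at 22 DPA (log2 change -3.78 ± 0.37, adjusted p = 3.67e-08). The replicates of 22 DPA lay close together and far below those of 16 DPA. At 19 DPA the TM-1 levels were 10.94, 11.26 and 11.53, between both stages, while *im* was still at 12.94 to 13.36. The *im* change was -3.26, and the change of log2(TM-1/*im*) was -0.53 with an adjusted p = 0.0944. On the plot of the named probes, the TM-1 curve of this probe lies below that of *im* at 16, 19, 22 and 25 DPA.

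**Figure D2:**
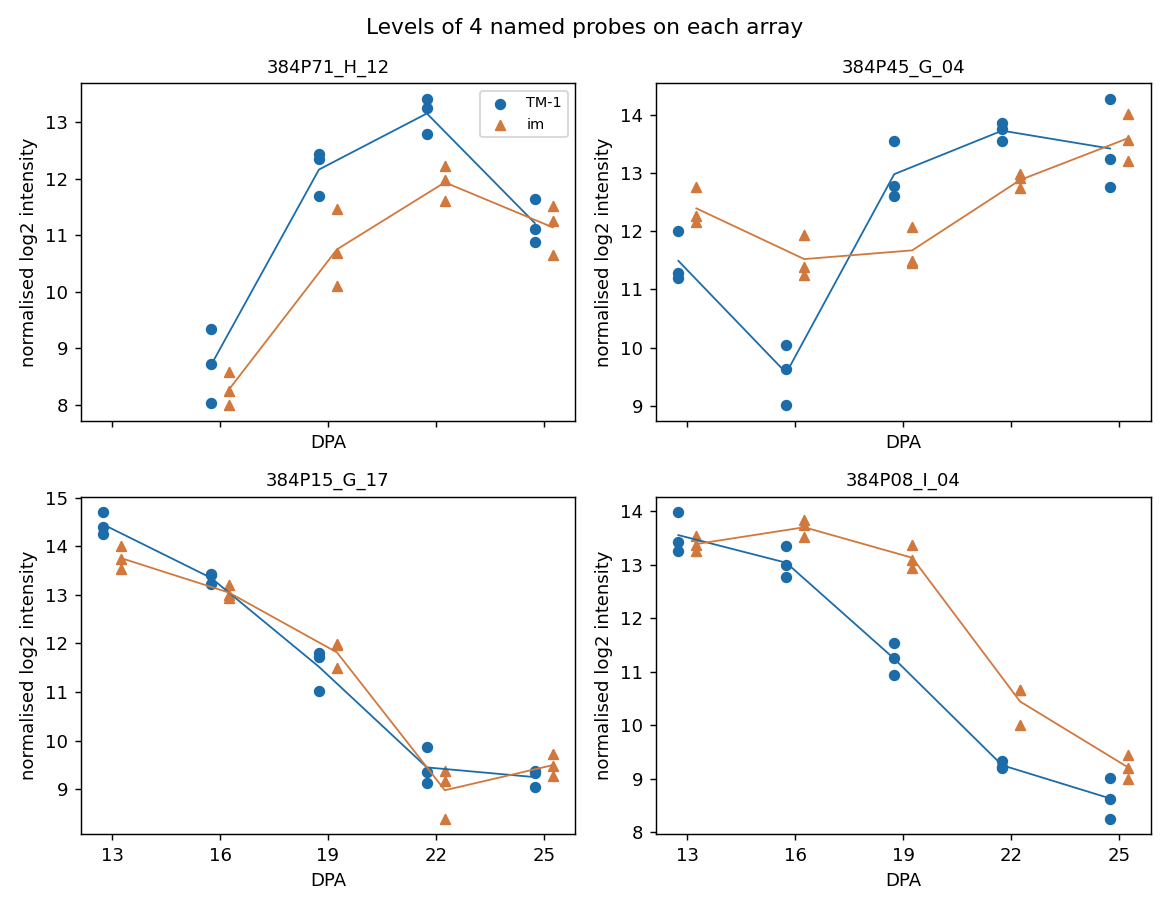
Normalised log2 intensity (vertical axes) of the 4 named probes against DPA (horizontal axes), with TM-1 as blue circles and *im* as orange triangles by source names, one point per array and lines through the means. In TM-1, 384P71_H_12 and 384P45_G_04 are higher at 22 than at 16 DPA on every array, and 384P15_G_17 and 384P08_I_04 are lower on every array. 384P71_H_12 was not measured at 13 DPA.

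Some probes were above 400 units in the TM-1 dye at one of the stages only. On all 3 arrays of 22 DPA and none of 16 DPA this was so for 390 probes, and on all 3 arrays of 16 DPA and none of 22 DPA for 548 probes. In comparison 9816 probes reached 400 units on all 6 arrays and 9919 on none. Most of the probes seen at one stage were not tested, because too few arrays of the other stage had either dye at 400 units. At 22 DPA only, 72 were tested and 42 were DEGs, and at 16 DPA only, 74 were tested and 43 were DEGs. Among all probes tested, 6.27% were DEGs higher and 8.88% DEGs lower at 22 DPA. The same TM-1 values picked the probes and made the calls, so a difference was built in and the counts are a description. For the DEGs seen at a single stage, the fold change has only a bound. The dimmer stage entered with the lowest level among probes over 400 units on its arrays, or the probe's own level where that was higher. On an array of the dimmer stage where the probe was not measured, its mean on the measured arrays stood for its own level. The bounds were 1.99-fold to 44.5-fold for the probes seen at 22 DPA only and 1.93-fold to 15.7-fold for those seen at 16 DPA only.

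The largest bounds belonged to 384P57_K_23 and 384P14_J_16. Probe 384P57_K_23 had TM-1 levels of 13.46, 13.25 and 13.98 at 22 DPA, against 190, 177.5 and 171.5 units before normalization at 16 DPA, where the *im* dye reached 400 units on replicates 1 and 2 only, so the fit used these 2 arrays of 16 DPA. It was at least 44.5-fold higher at 22 DPA (adjusted p = 6.62e-07). In *im* the levels on those 2 arrays of 16 DPA were 9.50 and 9.14, and the log2 change was 2.22, or 4.65-fold (adjusted p = 0.0333), which would be the change of TM-1 under the material labels. The fitted change of log2(TM-1/*im*) was 3.88 (adjusted p = 1.56e-05). It rests on TM-1 intensities under 400 units at 16 DPA, so its size is uncertain. High TM-1 levels were limited to 19 and 22 DPA: they were 12.86 to 13.77 at 19 DPA and 8.24 to 9.06 at 25 DPA. The *im* levels at 25 DPA were 12.29, 12.47 and 12.40, so by source names the order of the lines at 25 DPA was the opposite of that at 22 DPA, where *im* was at 11.27 to 11.84. Under the material labels *im* would be the higher line at both. Probe 384P14_J_16 had TM-1 intensities of 222, 239 and 312.5 units before normalization at 22 DPA, against levels of 12.50, 12.96 and 11.83 at 16 DPA, and was at least 15.7-fold lower at 22 DPA (adjusted p = 1.11e-07). Its TM-1 levels at 13 DPA were 12.40 to 12.49, close to those of 16 DPA, and at 19 DPA they were 7.49, 9.58 and 9.42. The decrease was thus already present on every array of 19 DPA.

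The arrays of 19 DPA were scaled with the others and shared the estimate of the spread, but their levels did not enter the means that were compared, and they place the changes in time. For DEGs higher at 22 DPA, the TM-1 mean of 19 DPA lay between the means of both stages for 630 of 841 probes, below that of 16 DPA for 128 and above that of 22 DPA for 83. For DEGs lower at 22 DPA it lay between for 949 of 1231, above that of 16 DPA for 99 and below that of 22 DPA for 183. The median share of the change reached by 19 DPA was 41.5% for the probes higher at 22 DPA and 61.9% for those lower. At 19 DPA, 43.2% of the higher and 63.9% of the lower DEGs were nearer to 22 than to 16 DPA. Replicates 1 and 2 of 19 DPA had a local background of 972 and 797 units in Cy3, and replicate 3 had 284.5. On replicate 2 TM-1 was in Cy5, where the local background was 145 units. Replicate 3 alone gave median shares of 46% for the higher and 57.9% for the lower DEGs. The TM-1 medians of all probes were 0.10 ± 0.16 at 16 DPA, -0.13 ± 0.23 at 19 DPA and -0.04 ± 0.17 at 22 DPA relative to each probe's mean (SD, n = 3 each), and the arrays of these stages overlapped. With each array centred on the median of all probes, a setting chosen after seeing the data, the median shares were 46% and 57.2%, closer to each other than before. The difference between the directions was not tested.

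Over the 5 stages the DEGs were followed as the median of each probe's level minus its own mean over the TM-1 channels, for the 615 higher and 842 lower DEGs measured on all 15 arrays. In TM-1 the DEGs higher at 22 DPA had medians between -0.63 and -0.47 at 13 DPA, between -1.14 and -0.71 at 16 DPA and between -0.45 and 0.13 at 19 DPA. The medians then lay between 0.68 and 0.95 at 22 DPA and between 0.66 and 1.01 at 25 DPA. The lowest medians were those of 16 DPA, and the arrays of 22 and 25 DPA overlapped. The DEGs lower at 22 DPA had medians between 0.73 and 0.93 at 13 DPA, between 0.81 and 0.93 at 16 DPA and between -0.35 and 0.05 at 19 DPA. Theirs then lay between -0.99 and -0.53 at 22 DPA and between -0.99 and -0.57 at 25 DPA. For these the arrays of 13 and 16 DPA overlapped, as did those of 22 and 25 DPA. Over all 8433 probes tested and measured on all arrays, the TM-1 medians lay between -0.37 and 0.29. In *im* the higher DEGs had medians of 0.40, 0.49 and 0.61 at 22 DPA and -0.98, -0.68 and -0.60 at 16 DPA, and the lower DEGs -0.65, -0.30 and -0.13 at 22 DPA and 0.71, 0.85 and 0.67 at 16 DPA. The TM-1 values of 22 and 16 DPA chose the probes, and those of the other stages did not. This choice favours extreme medians at 22 and 16 DPA.

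**Figure D3:**
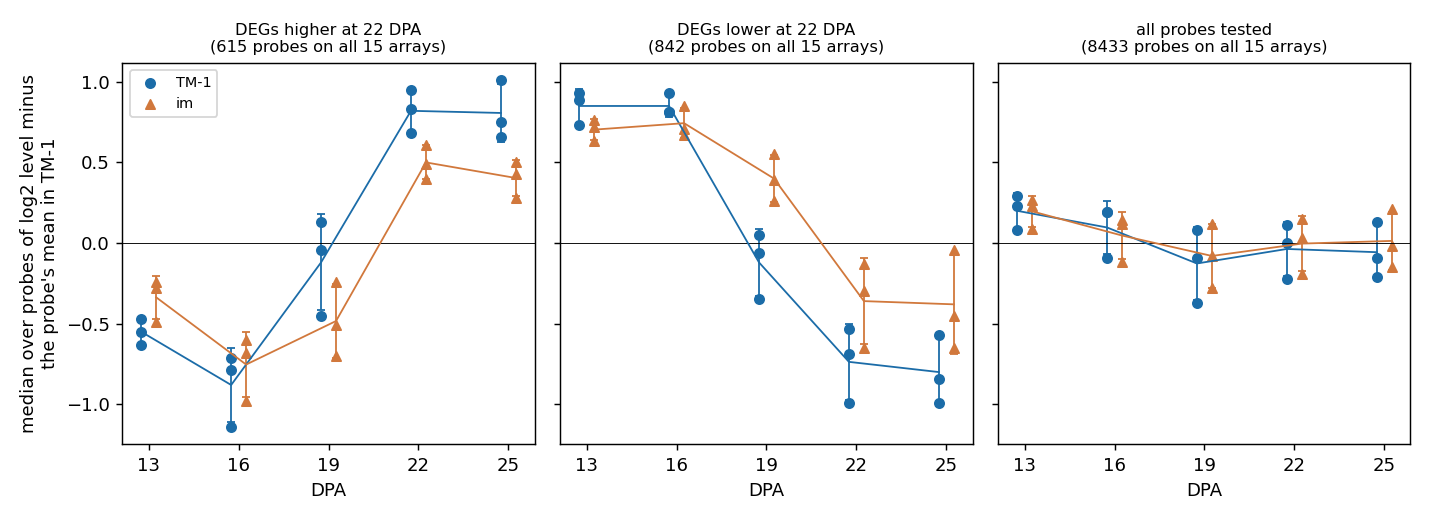
Median over probes of the log2 level minus the probe's mean in TM-1 (vertical axis) against DPA (horizontal axis), for the DEGs higher at 22 DPA (left), the DEGs lower at 22 DPA (middle) and all probes tested (right). Blue circles are TM-1 and orange triangles *im*, one point per array, with lines through the means and bars of 1 SD. In TM-1 the medians of 22 and 25 DPA overlap, the higher DEGs are lowest at 16 DPA, and the medians of all probes stay between -0.37 and 0.29. The DEGs were chosen by the TM-1 values of 22 and 16 DPA, which favours extremes at these stages.

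The change was also read on a separate set of arrays. The 6 arrays of 25 and 13 DPA were fitted apart from the 6 arrays of 22 and 16 DPA, after all 15 had been scaled together, and 13199 probes were tested in both. Fitted alone, 22 against 16 DPA gave 966 DEGs higher and 1279 lower in TM-1 among these probes. Of those, 570 (59%) were also DEGs higher at 25 than at 13 DPA and 904 (70.7%) were also DEGs lower, against 9.56% and 17.4% of all 13199 probes. As a share of the DEGs of 25 against 13 DPA, the overlap was 45.2% of those higher and 39.3% of those lower. No probe was a DEG higher at 22 DPA and lower at 25 DPA, and 3 were lower at 22 DPA and higher at 25 DPA. By sign alone, 897 of the higher DEGs (92.9%) were higher at 25 than at 13 DPA, against 40.7% of all probes, and 1242 of the lower ones (97.1%) were lower. The median log2 change of 25 against 13 DPA was 1.3 for the higher and -1.59 for the lower DEGs, and -0.23 for all probes.

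**Figure D4:**
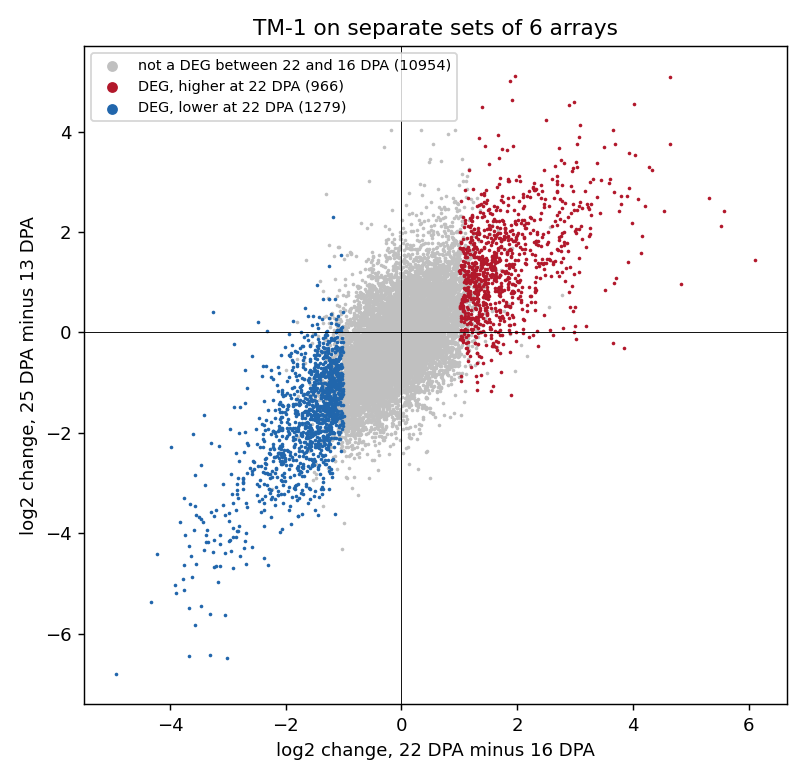
Log2 change of each probe in TM-1 between 25 and 13 DPA (vertical axis) against that between 22 and 16 DPA (horizontal axis), each from its own 6 arrays, for the 13199 probes tested in both. Red points are the 966 DEGs higher and blue points the 1279 DEGs lower at 22 DPA, and grey points all other probes. Most red points lie above 0 and most blue points below 0 on the vertical axis.

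The named probes were also read between 25 and 13 DPA. They had been picked for extreme values at 22 and 16 DPA, which favours smaller changes on other arrays. Between 25 and 13 DPA, 384P15_G_17 fell by 5.20 on the log2 scale (adjusted p = 1.78e-07) and 384P08_I_04 fell by 4.92 (adjusted p = 6.15e-07), each more than between 22 and 16 DPA. Probe 384P45_G_04 was higher at 25 DPA by 1.93 (adjusted p = 0.00201), less than between 22 and 16 DPA. Probe 384P44_H_05 was higher by 1.82 (adjusted p = 0.000165). For 384P17_P_09 and 384P54_M_05 the changes were -0.66 (adjusted p = 0.257) and -0.48 (adjusted p = 0.404), smaller than their falls between 22 and 16 DPA. For 384P57_K_23 the change was 1.43 with an adjusted p = 0.0586. Its TM-1 dye was under 400 units on all arrays of 13 DPA and on replicate 2 of 25 DPA, so this size is uncertain. Probes 384P71_H_12 and 384P14_J_16 were not tested between 25 and 13 DPA.

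DEGs called without one replicate of both stages changed mostly in the same direction on that replicate. Without replicate 1, 548 probes were called higher at 22 DPA, and 474 of the 480 measured on replicate 1 were higher there (98.8%, against 45.7% of all probes). Of the 672 called lower, 548 of 575 were lower on it (95.3%, against 54.3%). Without replicate 2 the shares were 97.5% of the higher and 97.9% of the lower DEGs, against 41.2% and 58.8% of all probes. Without replicate 3 they were 96.2% and 94.3%, against 46.6% and 53.4%. The median change on the left-out replicate was 1.71 to 1.95 for the higher DEGs and -1.16 to -1.89 for the lower ones, with the smallest decrease on replicate 3. The replicates thus gave the same directions, although fewer probes were called from 4 arrays than from 6.

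Of the 6 files of 22 and 16 DPA, those of replicates 1 and 2 at 22 DPA and of replicate 1 at 16 DPA carry no negative spot flags, and the other 3 do. Within the files without such flags, all 809 higher DEGs measured there were higher at 22 DPA, with a median change of 1.88, and all 1248 lower ones were lower, with a median of -1.67. Within the files with flags 886 of 887 were higher, with a median of 1.68, and 1241 of 1243 were lower, with a median of -1.42. The DEGs were chosen on the same arrays, so these counts are a description.

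The *im* channels of the same 6 arrays had 2071 DEGs (14.6% of the probes tested), of which 974 (6.88%) were higher and 1097 (7.75%) lower at 22 DPA. Of the 888 DEGs higher in TM-1, 871 (98.1%) were also higher in *im* by sign, and 494 were DEGs of *im* in the same direction. Their median log2 change was 1.68 in TM-1 and 1.32 in *im*. Of the 1257 DEGs lower in TM-1, 1204 (95.8%) were lower in *im* by sign, 631 were DEGs of *im* in the same direction and 8 in the other. Their median was -1.57 in TM-1 and -1.15 in *im*. Among all probes tested, 43.1% were higher at 22 DPA in TM-1 and 44.6% in *im*. Both lines share every array, and the probes were chosen by TM-1, so neither the likeness nor the larger TM-1 medians are evidence of their own.

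The difference between the lines was tested directly, as the change of log2(TM-1/*im*) between 22 and 16 DPA. At 1638 probes (11.6%) it was at least 2-fold with an adjusted p under 0.05, with 678 (4.79%) higher and 960 (6.78%) lower in TM-1 relative to *im* at 22 DPA. Of the DEGs higher in TM-1, 216 (24.3%) had a change that was larger in TM-1 by this test, 28 (3.15%) a change in the ratio of the opposite direction, and 644 (72.5%) no call. Of the DEGs lower in TM-1, 213 (16.9%) had the larger change in TM-1, 11 (0.875%) the opposite and 1033 (82.2%) no call. For most DEGs a difference between the lines was thus not called. The same TM-1 values enter both calls.

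Among probes over 400 units in both dyes on all 6 arrays and without overlap of the ratios, the largest changes of the ratio towards TM-1 were those of 384P45_G_04, given above, and 384P44_H_05. For 384P45_G_04, log2(TM-1/*im*) was 0.85 ± 0.04 at 22 DPA and -1.95 ± 0.26 at 16 DPA (SD, n = 3 each), a change of 2.80 (adjusted p = 1.42e-07). For 384P44_H_05 it was 1.17 ± 0.04 at 22 DPA and -1.34 ± 0.50 at 16 DPA, a change of 2.52 (adjusted p = 7.58e-07). Both probes were lower in TM-1 than in *im* on all arrays of 16 DPA and higher on all arrays of 22 DPA. The TM-1 levels of 384P44_H_05 were 10.86, 13.84 and 13.95 at 22 DPA and 9.92, 10.44 and 11.22 at 16 DPA. Replicate 1 of 22 DPA was low in both lines, and its TM-1 level lay within the range of 16 DPA and its *im* level of 9.65 below the 11.70 to 12.02 of 16 DPA, whereas its ratio of 1.22 lay close to the 1.13 and 1.17 of replicates 2 and 3.

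Among the same kind of probes, the largest changes away from TM-1 were those of 384P17_P_09 and 384P54_M_05. For 384P17_P_09, log2(TM-1/*im*) was -1.65, -1.62 and -1.29 at 22 DPA and 2.81, 2.83 and 2.70 at 16 DPA, a change of -4.31 (adjusted p = 9.87e-09). TM-1 fell by 2.34 on the log2 scale (adjusted p = 0.000124) while *im* was higher at 22 DPA by 1.96 (adjusted p = 0.00106). For 384P54_M_05 the ratios were -1.86, -1.78 and -1.05 at 22 DPA and 2.55, 2.45 and 2.32 at 16 DPA, a change of -4.00 (adjusted p = 3.14e-08). Here TM-1 fell by 2.58 (adjusted p = 0.000162) and *im* was higher by 1.43 (adjusted p = 0.0326). Between the end stages of 16 and 22 DPA the lines thus changed in opposite directions. At 19 DPA the mean levels of TM-1 and *im* were 12.53 and 12.24 for 384P17_P_09, and 12.98 and 12.81 for 384P54_M_05. For both probes the means of both lines were higher at 19 than at 22 DPA. At 13 DPA, the ratios of both probes lay between -0.19 and 0.55, and at 19 DPA between -0.18 and 0.71, so the large ratio of 16 DPA was seen at neither neighbouring stage. Under the material labels the lines change places in the values of 22 and 16 DPA, and not in those of 13 and 19 DPA.

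The probe names carry the number of the clone plate, a property that did not enter the choice of DEGs. On the 65 of 76 plates with at least 100 tested probes, 2.05% to 18.5% of the probes were DEGs higher and 1.98% to 19.1% DEGs lower at 22 DPA. Plate 73 had the highest share of higher DEGs, 34 of 184, with 7 lower. Plate 44 had the highest share of lower DEGs, 57 of 298, with 12 higher. Runs of neighbouring plates leaned the same way, with exceptions. On plates 42 to 59, 196 of 4442 tested probes were higher (4.41%) and 538 lower (12.1%). On plates 60 to 70, 179 of 2106 were higher (8.50%) and 84 lower (3.99%), and all 11 of these plates had more higher than lower DEGs. On plates 71 to 76, 10.1% were higher and 6.56% lower, with more higher DEGs on 4 plates and more lower ones on 2. On plates 1 to 41 the shares were 6.13% higher and 8.66% lower. These runs of plates were chosen after their values had been seen, and no test was made. Over the 48 print blocks of the array, each with the same wells of all plates, 1.96% to 9.46% of the probes were higher and 3.91% to 20.1% lower. What the plates hold is not named in the tables used here.

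**Figure D5:**
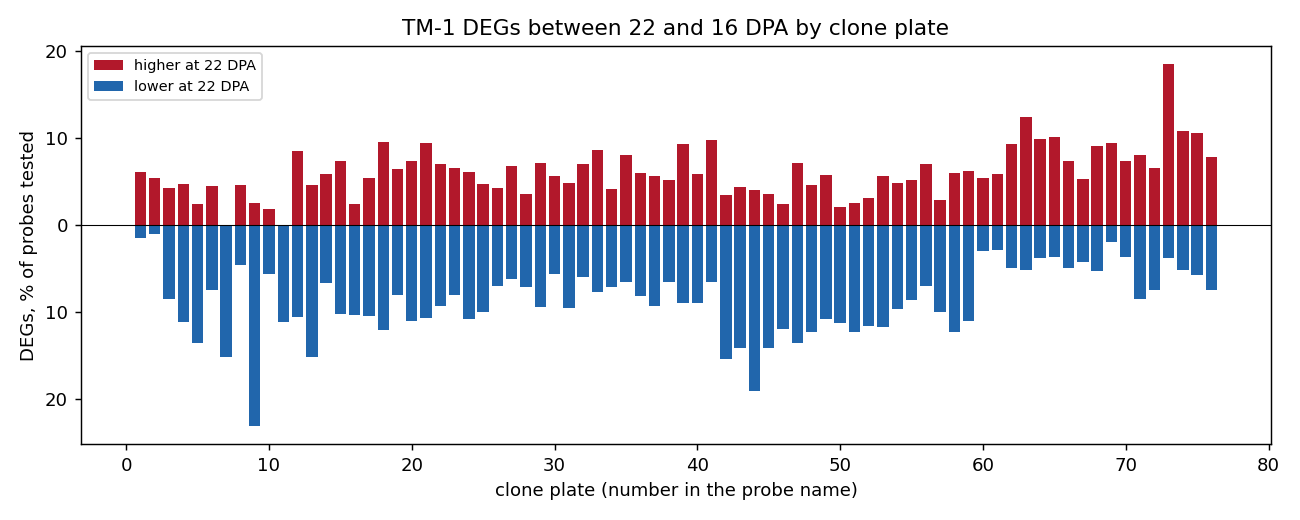
Share of the tested probes of each clone plate (vertical axis, percent) that were TM-1 DEGs higher at 22 DPA (red, upwards) or lower at 22 DPA (blue, downwards), against the plate number in the probe name (horizontal axis). Plates 60 to 70 have more higher than lower DEGs, and plates 42 to 59 mostly more lower ones. The 11 plates with fewer than 100 tested probes rest on few values.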

How the data were processed

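The authors hybridised, scanned and read the arrays with LuxScan. The deposited files hold, for each spot, the median intensity in Cy5 and in Cy3 after subtraction of the local background. The authors also deposited a table of log2 ratios, Cy5 over Cy3. On the 6 arrays of 22 and 16 DPA it correlated at 0.966 to 0.998 with ratios from the intensities, with column medians from 9.4e-05 to 0.016, so it is centred near 0 and not turned for the swap. Limma 3.4.5 and R 2.12.2 are named in the submitters' processing notes. The table served as an alternative only.

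Intensities were analysed with limma 3.58.1 in R 4.3.3. The 816 control spots were left out. Spots with both dyes under 400 units were left out, since the methods do not say which dye their limit applies to, and values under 50 units were raised to 50. Loess within arrays and Aquantile between all 15 arrays followed, and this scaling was kept where arrays were left out of a fit. The 30 channels of all 15 arrays were fitted with 1 coefficient per line and stage and the array as a block, with an intraspot correlation of 0.862 estimated from at most 3000 probes. Probes measured on at least 2 arrays of each stage were tested. Benjamini-Hochberg adjustment of the p-values was made over the 14163 probes tested, and every adjusted p is from limma. The change of log2(TM-1/*im*) was tested on the log ratios of all arrays. The fits were tested on simulated data.

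Per direction, the named probes were the 2 DEGs with the largest fold change over 400 units in the TM-1 dye on all 6 arrays without overlap, the 2 probes with the largest called change of the ratio over 400 units in both dyes without overlap, and the DEG with the largest bound among those seen at one stage. The members, lists and tests were chosen with earlier results of these data known. The gene lists and cell type markers that had been planned were not used, because no table used here pairs probes with genes, and no sequences are shown for the same reason. Alternatives were other filters, background corrections and scalings, other sets of arrays, added terms and a fold limit in the test. The number of arrays limits the precision.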

Additional observations from a re-analysis of the deposited data

Results flagged for a closer look

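The lines differed in their change between 22 and 16 DPA at 1638 probes, by the limma test of the change of log2(TM-1/*im*). The 4 probes named for it are given here because TM-1 and *im* had unequal changes on the same arrays. The change of log2(TM-1/*im*) was 2.80 for 384P45_G_04 and 2.52 for 384P44_H_05. It was -4.31 for 384P17_P_09 and -4.00 for 384P54_M_05, where TM-1 was lower and *im* higher at 22 DPA. Groups of 3 arrays were too small to look for single outlying samples.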

How the results depend on the processing

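Of 238 values of the named probes that were tested under the alternatives, 234 kept their direction and their side of the threshold, whatever their size. The other 4 are the changes of log2(TM-1/*im*), which turn under the material labels by construction, to -2.80 for 384P45_G_04, -2.52 for 384P44_H_05, 4.31 for 384P17_P_09 and 4.004 for 384P54_M_05. Those labels give TM-1 2071 DEGs, 974 higher and 1097 lower at 22 DPA. The TM-1 log2 change then went from 6.10 to 2.22 for 384P57_K_23 and from 4.16 to 1.36 for 384P45_G_04. Only 384P15_G_17, of the probes named for this change, had a larger one, -4.07 against -3.90. With spots of either dye under 400 units left out, 384P71_H_12, 384P57_K_23 and 384P14_J_16 could not be tested in TM-1. Nor could 384P57_K_23 without replicate 1 or 2 of 16 DPA or of both stages, or with probes measured on all 6 arrays only. These cases are not among the 238.

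With no filter on faint spots TM-1 had 3283 DEGs, 1684 of them higher. Without Aquantile scaling 409 were higher, and *im* had 1348 DEGs. Tested against a change of 1.5-fold (treat), 752 probes were DEGs in TM-1, 343 higher and 409 lower, while *im* had 637 DEGs, and the ratio changed at 594 probes. Leaving out 1 array, or 1 replicate of both stages, gave 1048 to 1881 DEGs in TM-1, 498 to 755 higher and 550 to 1180 lower, and 945 to 1729 in *im*. Without replicate 1 of both stages TM-1 had 1220 DEGs and without replicate 2 it had 1048, and *im* had 1315 without replicate 2 of 22 DPA. The DEGs shared with 25 against 13 DPA, 1474 in all, numbered 538 to 919 when 1 replicate was left out. Of the DEGs of 22 against 16 DPA, 65.7% were shared with all replicates. The share was 45.9% without replicate 1, 70.4% without replicate 2 and 66.2% without replicate 3. Fewer arrays entered these fits. For the other settings the cause was not tested.

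Same-numbered replicates of 22 and 16 DPA deviated together at correlations of -0.0027, 0.053 and 0.093, and differently numbered ones at -0.11 to 0.058. With 3 arrays per stage these values cannot show whether the numbers pair the samples. With the replicate block TM-1 had 2271 DEGs, 936 higher and 1335 lower, *im* had 2206, and the ratio changed at 1647. Without the arrays of 19 DPA, chosen after seeing the data, TM-1 had 2380 DEGs, and with probes measured on all 6 arrays only, also chosen afterwards, 1949. Probes near 400 units, and those under it at one stage, limit what the arrays can measure.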
